A study of Homo sapiens with 12 samples.

Results

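Cancer-testis and germline genes were followed in SKOV-3, an established human epithelial ovarian adenocarcinoma cell line, by poly(A) RNA sequencing. The members were the rows of the count table whose gene name belonged to a fixed set of families: MAGE (type I and type II), SPANX, GAGE, PAGE, XAGE, SSX, CTAG, TEX and TDRD, and the meiotic or germ cell genes DAZL, DDX4, MEIOB, SYCP1, SYCP2, SYCP3 and STAG3. A total of 136 of 59498 gene identifiers matched, 85 of them X-linked and 51 autosomal. The 12 libraries formed 4 groups of 3: cisplatin-resistant cells with both KDM5A and KDM5B knocked out, cisplatin-resistant cells with wild-type KDM5 genes, parental cells with the same double knockout, and parental wild-type cells. Whether a knockout line was a single clone, and whether resistant cells were under drug at harvest, is not given in the sources used here. Nothing in the labels ties the 3 libraries of a group to separate cultures, so a p-value here measures spread that may be technical only.

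Cancer-testis genes are normally transcribed in germ cells of the testis, are silent in most somatic tissues, and are switched on again in many tumours; a large share of them lies in multicopy families on the X chromosome. Methylation of CpG-containing promoters is a well-known part of their silencing. KDM5A and KDM5B encode demethylases that remove methyl groups from lysine 4 of histone H3, a mark of active promoters, so loss of KDM5 activity asks whether such genes are held down by these enzymes. Meiotic and germ cell genes form a second group, many of which are repressed in somatic cells through promoters that carry an E-box or an E2F site.

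The RefSeq promoter windows (GRCh38.p14, 250 bases before to 50 bases after the start, plus strand, CG dinucleotides in capitals) of 5 X-linked members are shown because their transcripts were at or near 0 reads in parental cells and differed in how resistant cells with and without the double knockout compared. MAGEA8 (X:149880933-149881232), MAGEB2 (X:30215313-30215612) and SPANXB1 (X:141002344-141002643) had their higher level in resistant double-knockout cells. MAGEA3 (X:152698544-152698843) and MAGEA12 (X:152733507-152733806, the first of 2 windows) had it in resistant cells without the knockout.
MAGEA8: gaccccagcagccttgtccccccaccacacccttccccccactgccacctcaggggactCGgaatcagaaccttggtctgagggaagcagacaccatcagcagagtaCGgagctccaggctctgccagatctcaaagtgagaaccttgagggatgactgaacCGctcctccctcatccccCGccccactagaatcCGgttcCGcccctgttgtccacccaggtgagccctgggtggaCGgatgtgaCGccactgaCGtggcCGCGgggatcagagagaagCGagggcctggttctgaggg
MAGEB2: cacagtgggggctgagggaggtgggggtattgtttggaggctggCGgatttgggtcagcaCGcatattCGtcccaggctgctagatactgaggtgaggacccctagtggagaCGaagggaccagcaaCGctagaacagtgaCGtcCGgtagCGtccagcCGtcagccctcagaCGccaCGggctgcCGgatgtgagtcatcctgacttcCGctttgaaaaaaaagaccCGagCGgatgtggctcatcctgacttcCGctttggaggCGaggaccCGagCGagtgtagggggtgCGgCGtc
SPANXB1: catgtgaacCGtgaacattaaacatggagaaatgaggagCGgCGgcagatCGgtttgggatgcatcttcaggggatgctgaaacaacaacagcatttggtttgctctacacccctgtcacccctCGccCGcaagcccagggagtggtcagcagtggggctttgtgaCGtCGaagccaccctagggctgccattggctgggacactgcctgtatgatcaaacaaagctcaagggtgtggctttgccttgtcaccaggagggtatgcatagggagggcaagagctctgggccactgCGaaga
MAGEA3: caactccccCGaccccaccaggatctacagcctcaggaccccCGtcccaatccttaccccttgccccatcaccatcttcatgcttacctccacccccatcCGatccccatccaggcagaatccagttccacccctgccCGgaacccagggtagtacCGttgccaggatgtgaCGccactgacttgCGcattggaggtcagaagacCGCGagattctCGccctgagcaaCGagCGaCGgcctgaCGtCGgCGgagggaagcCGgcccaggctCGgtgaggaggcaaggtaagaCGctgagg
MAGEA12: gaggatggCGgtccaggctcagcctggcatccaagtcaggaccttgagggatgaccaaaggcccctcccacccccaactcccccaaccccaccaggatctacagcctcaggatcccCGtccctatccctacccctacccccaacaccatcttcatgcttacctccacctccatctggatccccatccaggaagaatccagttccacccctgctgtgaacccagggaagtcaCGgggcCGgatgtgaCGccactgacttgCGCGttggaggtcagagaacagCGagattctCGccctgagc

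The windows held 12, 21, 9, 19 and 9 CpG dinucleotides for MAGEA8, MAGEB2, SPANXB1, MAGEA3 and MAGEA12, against a median of 14 over 34943 distinct RefSeq windows and 12 over the 106 members with a window. The median ratio of observed to expected CpG was 0.45 in members and 0.58 in all windows. For members with several windows only the first one listed entered these medians, whereas every distinct window entered the overall ones. The CpG count thus did not sort the 3 windows of genes with the higher level in double-knockout cells from the other 2. MAGEA3 and MAGEA12 lie near each other on Xq28. At the best single offset without gaps their windows were 77.4% identical over 226 bases, and every other pair among the 5 was 30.4% to 36.8% identical. A single offset can miss shared stretches that are spaced differently. The windows of MAGEA8, MAGEA3 and MAGEA12 all hold gatgtgaCGccactga, so these values do not show that MAGEA8 is unrelated to the other 2.

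Motifs were searched on both strands. The member shares again take a single window per member, while the share over all windows takes every distinct window. The E-box CACGTG stood in 20.8% of member windows (22 of 106) and in 7.23% of all windows; 12 of the 22 were GAGE genes, whose copies are nearly identical. The E2F motif GCGGGA stood in 36.8% of member windows (39 of 106) against 26.8% of all windows. The same 12 GAGE genes are among those 39, so near-identical copies weigh on this share too. The ETS core CCGGAA stood in 8.49% against 17.2%. Of the 23 type I MAGE windows 0 held CACGTG, 0 held GCGGGA and 3 held CCGGAA, among them MAGEA3. TDRD12, a gene of the piRNA pathway in mouse, had both CACGTG and GCGGGA in its window. So did a window of STAG3, of DAZL, of TEX10 and of PAGE4, and those of the GAGE genes. These matches describe letters in a window only.

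Total counts ran from 15659352 to 19706754 per library. The transcript of KDM5A measured 14.8 ± 2.8 CPM (counts over the TMM-adjusted library size, mean ± SD, n = 3) in resistant double-knockout cells and 37.4 ± 3.5 in resistant cells, and 19.7 ± 3.6 in parental double-knockout and 37.3 ± 5.6 in parental cells. Permuting labels within backgrounds gave an exact two-sided permutation p of 0.005, the lowest value this design allows. KDM5B measured 56.7 ± 28.2 against 76.6 ± 36.1 CPM in the resistant pair and 53.8 ± 26.9 against 57.9 ± 19.3 in the parental pair (exact permutation p = 0.445), and the untargeted paralog KDM5C gave p = 0.465 in the exact permutation test. Frameshift alleles may still be transcribed, and protein was not measured. Of 9 ovarian epithelial markers 8, 6, 8 and 7 reached 1 CPM in resistant double-knockout, resistant, parental double-knockout and parental cells. In resistant against parental cells edgeR called 3 of these 9 higher and 4 lower, where 28.0% of all genes were called. Defining spermatogenic markers (PRM1, PRM2, TNP1, ACR, ODF1, AKAP4 and LDHC) were below 1 CPM throughout, with a summed level of at most 0.717 CPM. Each of 4 leukocyte and 4 endothelial markers also averaged below 1 CPM in every group, with summed levels of at most 1.14 and 2.80 CPM. Of 6 fibroblast markers 5, 4, 3 and 1 reached 1 CPM, with summed levels of 2525 to 4465, 347 to 953, 1.5 to 27.5 and 1.37 to 7.25 CPM in the same order of groups. In resistant against parental cells 4 of these 6 were higher and 1, DCN, was lower. COL1A2, COL3A1 and PDGFRB passed the filter on low counts only with resistant libraries and DCN only with parental ones. These calls are thus partly set by the filter, which the ovarian marker WT1 also passed only with resistant libraries. The fibroblast markers moved alongside the cancer-testis genes, and their part in the results was not tested.

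Of the 136 members, 52 had no read in any library, 52 had reads but too few to be tested (at most 70 over all 12 libraries), and 32 were tested. All 3 CTAG genes, which encode NY-ESO-1 and its relatives, were without a read, as were 10 of 13 GAGE, 9 of 11 SSX, 8 of 10 SPANX and 4 of 5 XAGE rows. At these depths 3 counts, the limit that a count of 0 allows, comes to at most 0.194 CPM in each library. Germ cell RNA helicase DDX4 had 3, 6 and 2 reads in resistant double-knockout, 2, 2 and 1 in resistant, 4, 2 and 1 in parental double-knockout and 1, 0 and 1 in parental libraries, and the RNA-binding gene DAZL had none.

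Among the 32 tested, 11 reached the level that the filter on low counts asks for (0.569 CPM of the total counts) in 0 of the 6 parental libraries: MAGEA1, MAGEA3, MAGEA8, MAGEA12, MAGEB2, MAGEB17, MAGEH1, SPANXB1, SSX6P, TDRD12 and TEX14. All but TEX14 had at most 3 reads over each parental group. These 11 passed the filter only because they were high in resistant cells, so their difference from parental cells is part of how they came to be tested and their p-values there are no independent support. SPANXB1 reached that level in the resistant double-knockout libraries alone, so the same holds for its knockout contrast. MAGEB2 reached it in 3 resistant double-knockout and 2 resistant libraries, and MAGEA1 in 3 and 1. Neither would have passed on its resistant libraries alone, so their knockout contrasts carry the same limit. A further 18 had a mean of at least 1 CPM in all 4 groups. In the map of tested members, the type I MAGE, SPANX and SSX rows were dark in all 6 parental libraries. The type I MAGE and SSX rows were lighter in resistant libraries with and without the knockout and SPANXB1 in those with it, while most TEX and TDRD rows differed little in colour over the 12.

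**Figure D1:**
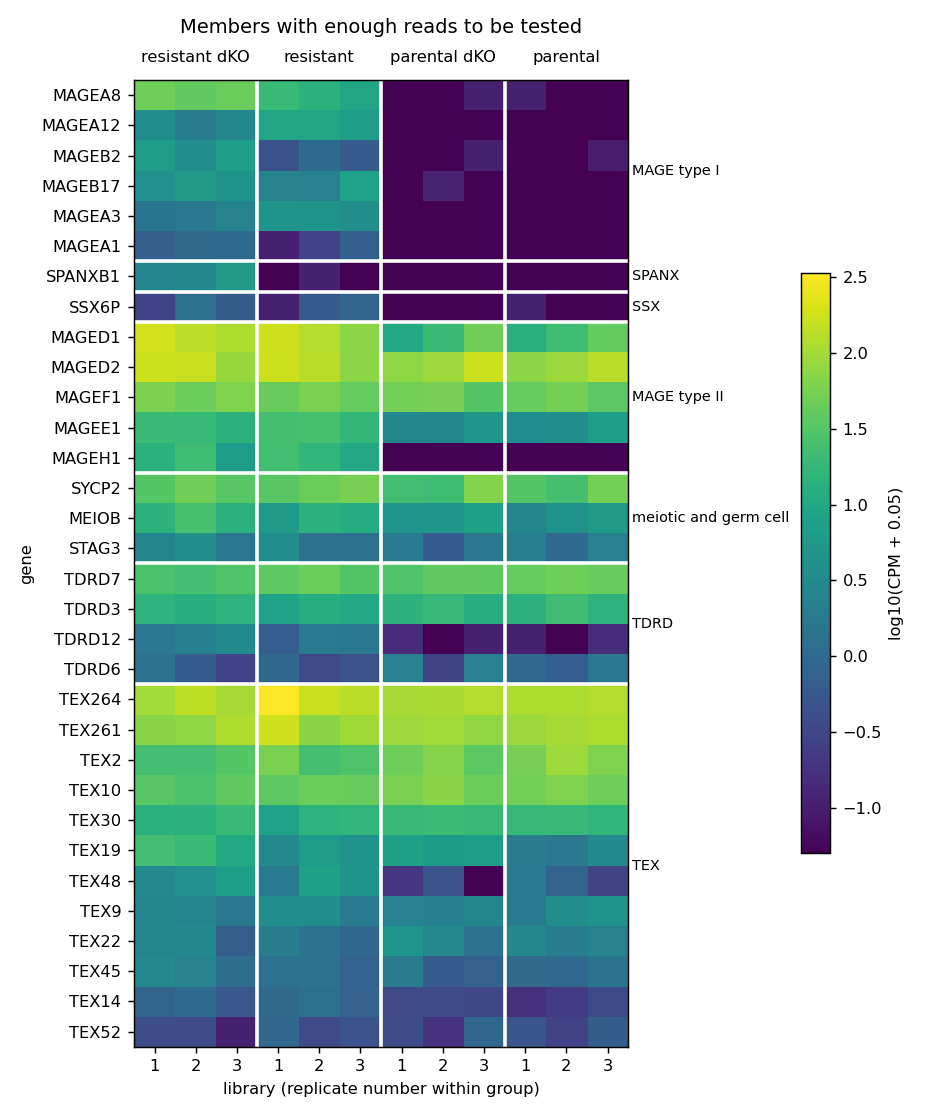
Level of the 32 tested members (rows, grouped by family) in the 12 libraries (columns, 3 per group), as the log10 of CPM plus 0.05. Type I MAGE, SPANX and SSX genes are at or near the lowest colour in parental and parental double-knockout libraries, whereas 18 of the 32 members average at least 1 CPM in every group.

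Resistant cells held transcripts of X-linked cancer-testis genes that were at or near 0 in parental cells. Summed over the 76 rows of the 7 X-linked cancer-testis families (type I MAGE, SPANX, GAGE, PAGE, XAGE, SSX and CTAG), the level was 59.1 to 71.0 CPM in resistant double-knockout and 31.0 to 37.6 CPM in resistant libraries. It was 0.0645 to 0.517 CPM in parental double-knockout and 0.0518 to 0.239 CPM in parental libraries. All 6 resistant libraries were above all 6 parental ones, and within resistant cells the double-knockout libraries were all above the others. That last separation rested on 1 gene: without MAGEA8 the sum was 20.32 to 26.50 CPM in resistant double-knockout and 17.92 to 21.97 CPM in resistant libraries, which overlap, and MAGEA12 and MAGEA3 had their higher values without the knockout. In bulk RNA, a few cells with much of a transcript and many cells with little cannot be told apart. Of these rows, 15 to 20 had at least 1 read per resistant double-knockout library and 13 to 14 per resistant library, against 1 to 6 and 1 to 4 in parental double-knockout and parental libraries. Type I MAGE genes made up most of the sum in both resistant groups.

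**Figure D2:**
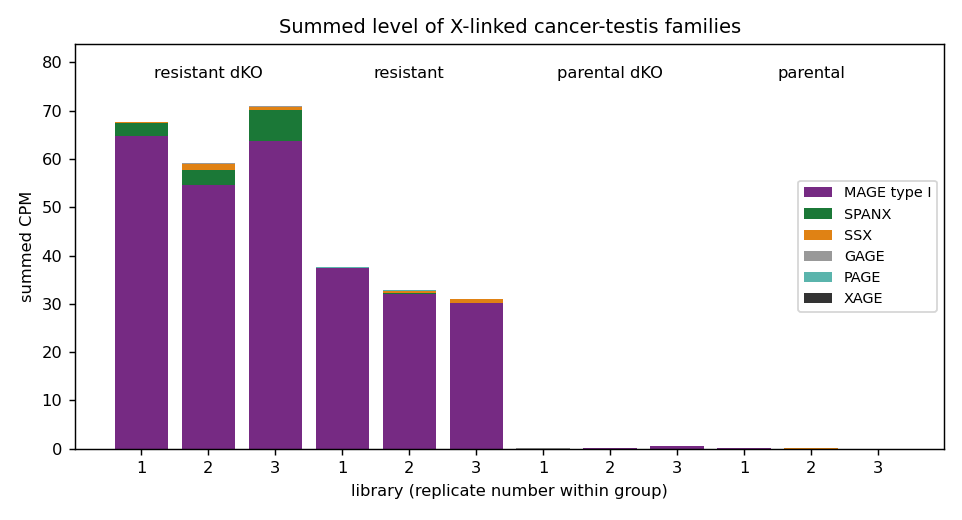
Summed CPM of the X-linked cancer-testis families in each of the 12 libraries, stacked by family; CTAG had no reads. Bars reach 59.1 to 71.0 in resistant double-knockout and 31.0 to 37.6 in resistant libraries and stay at or below 0.517 in parental double-knockout and 0.239 in parental libraries.

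In resistant against parental cells, 13 of the 32 tested members were higher and 0 lower by edgeR's quasi-likelihood test (Benjamini-Hochberg adjusted over all 17947 genes tested). The background was 28.0% of all genes, with 15.2% higher and 12.8% lower. The median log2 fold change was 0.94 over the tested members and 0.02 over all genes tested, a contrast that includes the 11 genes let in by their resistant level. Among the 18 members measured in all groups, 3 were higher, MAGED1, MAGEE1 and MEIOB. With the double knockout on both sides, resistant against parental cells gave 15 higher and 1 lower (background 23.9%, with 13.6% higher and 10.2% lower), and 12 members were called in both contrasts, as were 18.5% of all genes tested.

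Of the 12 tested members on the X chromosome 10 were higher in resistant than in parental cells, against 18.8% of the 522 other X-linked genes tested and 15.2% of autosomal genes. However, 9 of the 12 had at most 3 reads over each parental group and passed the filter only through resistant libraries. The count of 10 is thus partly set by how these genes came to be tested, and its distance from the other shares is no independent support. Other X-linked genes were lower in 18.2% and autosomal ones in 12.7%.

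Among type I MAGE genes, whose proteins bind RING ubiquitin ligases, MAGEA8 (ENSG00000156009, GRCh38 chromosome X, 149881141 to 149885835) had the highest level. It measured 47.2, 38.8 and 44.5 CPM in resistant double-knockout libraries and 19.7, 14.4 and 8.99 CPM in resistant libraries. In parental double-knockout libraries it had 0, 0 and 0.06 CPM and in parental libraries 0.06, 0 and 0 CPM, which is 1 read in each group. All resistant libraries were far above all parental ones: the ratio of resistant to parental was 731, with a 95% exact counting interval of 131 to 28919 (edgeR adjusted p 3.61e-06). Per transcript length, MAGEA8 reached 61.8 TPM in resistant double-knockout cells, beside 26.7 TPM for SPANXB1 and 11.5 TPM for MAGEB2.

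MAGEB2 (ENSG00000099399, chromosome X, 30215560 to 30220089) measured 6.24, 3.65 and 6.73 CPM in resistant double-knockout and 0.41, 1.04 and 0.58 CPM in resistant libraries, with 1 read over each of the parental groups. The ratio of resistant to parental was 34.4 (5.78 to 1397, adjusted p 0.00271) and that of resistant double-knockout to parental double-knockout 292 (52.0 to 11579, adjusted p 8.35e-05). All 3 resistant double-knockout libraries were above all 3 resistant ones.

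MAGEA12 (ENSG00000213401, chromosome X, 152733779 to 152737669) measured 3.66, 2.05 and 2.96 CPM in resistant double-knockout and 8.93, 8.71 and 6.83 CPM in resistant libraries. MAGEA3 (ENSG00000221867, chromosome X, 152698752 to 152702347) measured 1.49, 1.66 and 2.53 CPM against 4.73, 4.75 and 3.84 CPM in the same groups. Neither had a read in any of the 6 parental libraries. Relative to parental cells, resistant cells were at least 140-fold higher for MAGEA12 (adjusted p 4.86e-05) and at least 76.0-fold higher for MAGEA3 (adjusted p 0.000106). The exons of MAGEA3 share 56.5% of their 50-base words with other genes, MAGEA6 in particular, and MAGEA12 shares 13.8% and overlaps the pseudogene CSAG4, so some of their reads may belong to copies.

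MAGEB17 (ENSG00000182798, chromosome X, 16167481 to 16171464) measured 4.21, 5.87 and 4.63 CPM in resistant double-knockout and 2.57, 2.25 and 8.20 CPM in resistant libraries. It had 1 read over the parental double-knockout and 0 over the parental libraries, and was at least 77.6-fold higher in resistant than parental cells (adjusted p 0.000246). The antisense transcript AC078993.1 on the opposite strand followed the same pattern, with means of 6.43, 5.57, 0.02 and 0.02 CPM in resistant double-knockout, resistant, parental double-knockout and parental cells. The strand setting of the counting is not given in the sources used here, so reads of the pair cannot be told apart. MAGEA1 (ENSG00000198681) measured 0.69, 1.00 and 1.05 CPM in resistant double-knockout, 0.06, 0.24 and 0.68 CPM in resistant and 0 in parental libraries. Its call in resistant against parental cells (at least 5.90-fold, adjusted p 0.0220) was lost without resistant library 3 (adjusted p 0.0632) or parental library 1 or 2 (0.0521 and 0.0561).

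Members below the filter had counts near the limit and were not tested. MAGEA4, a target of engineered T cell receptors, had 6, 8 and 3 reads in resistant double-knockout and 1, 1 and 1 in resistant libraries. MAGEA6, which is nearly identical to MAGEA3, had 5, 6 and 9 against 2, 4 and 1 reads. MAGEC3 had 6, 2 and 1 against 5, 2 and 2 reads. All 3 genes had 0 reads in the 6 parental libraries. MAGEA10 was the other way round, with 4, 6 and 4 reads in resistant double-knockout and 7, 4 and 13 in resistant libraries, and 4 and 1 reads over the parental double-knockout and parental groups. Of the 52 untested members with reads, 33 (63.5%) had more reads in resistant double-knockout than in resistant libraries and 9 (17.3%) had fewer, against 47.9% and 29.5% of the 22831 other untested genes with 1 to 70 reads. In 36 of the 52 the totals differed by at most 2 reads.

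SPANX genes encode sperm proteins associated with the nucleus. SPANXB1 (ENSG00000227234, chromosome X, 141002591 to 141003706) had 52, 53 and 96 reads (2.57, 2.94 and 5.93 CPM) in resistant double-knockout libraries. It had 0, 1 and 0 reads in resistant libraries and 0 in the 6 parental libraries. Its relative SPANXC had 0, 3 and 8 reads in resistant double-knockout and 0 in the 9 other libraries, but shares 84.9% of its 50-base words with other genes, against 21.7% for SPANXB1. SSX6P, a pseudogene of the SSX family, measured 0.25, 1.22 and 0.62 CPM in resistant double-knockout and 0.06, 0.55 and 0.84 CPM in resistant libraries, with 0 and 1 read over the parental groups. It was called in resistant against parental cells (ratio 25.6, 4.20 to 1048, adjusted p 0.0341) although the libraries overlapped. Without resistant library 2 or 3, or without parental library 1, 2 or 3, that adjusted p was 0.0764, 0.103, 0.0555, 0.109 and 0.0952.

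**Figure D3:**
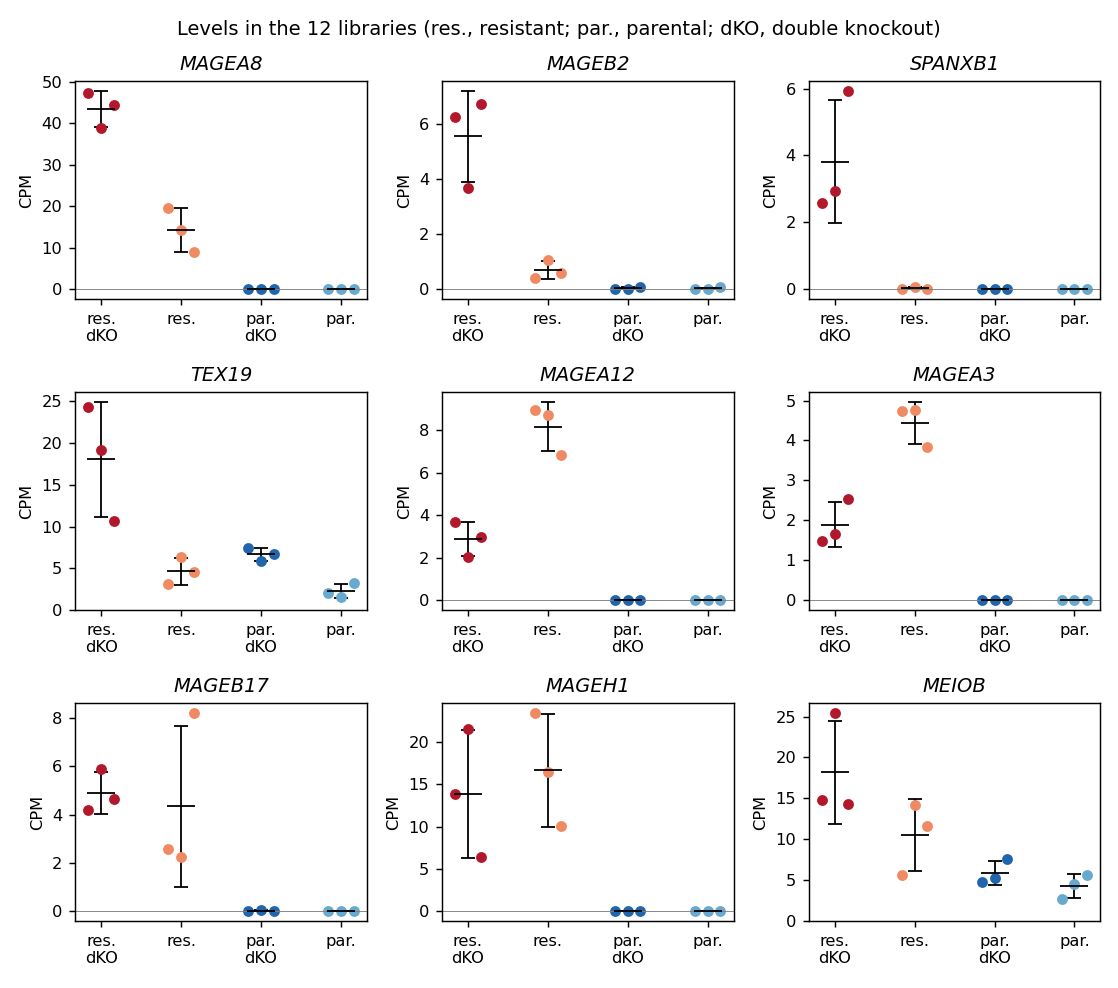
CPM of 9 members in each library (points), with the group mean and SD (bars), from resistant double-knockout to parental cells. Resistant double-knockout libraries lie above resistant ones for MAGEA8, MAGEB2 and SPANXB1 and below them for MAGEA12 and MAGEA3, and all 5 are at or near 0 in the 6 parental libraries.

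Type II MAGE genes, unlike type I, are transcribed in many somatic tissues. MAGED1 (ENSG00000179222), which encodes an adaptor of the p75 neurotrophin receptor, measured 183, 140 and 112 CPM in resistant double-knockout and 175, 122 and 72.8 CPM in resistant libraries. It measured 10.6, 20.1 and 50.4 CPM in parental double-knockout and 12.9, 21.7 and 40.9 CPM in parental libraries. All resistant libraries were above all parental ones, with a log2 fold change of 2.29 ± 0.56 SE without the knockout (adjusted p 0.00927) and 2.42 ± 0.56 with it (adjusted p 0.00824). MAGEE1 (ENSG00000198934) averaged 17.6 ± 2.9 and 22.6 ± 4.9 CPM in resistant double-knockout and resistant cells and 3.64 ± 1.28 and 4.82 ± 1.92 CPM in parental double-knockout and parental cells (2.22 ± 0.36 without the knockout, adjusted p 0.000895). MAGEH1 (ENSG00000187601) had no read in the 6 parental libraries and measured 13.8, 21.4 and 6.36 CPM in resistant double-knockout and 23.4, 16.5 and 10.0 CPM in resistant libraries, so that among double-knockout cells the resistant ones were at least 249-fold higher (adjusted p 0.000161). MAGED2 (97.4 to 140 CPM over the group means) and the autosomal MAGEF1 (43.3 to 55.7 CPM) passed no test.

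Of the meiotic and germ cell genes, MEIOB passed the test. It encodes a single-strand DNA binding protein of meiotic recombination (ENSG00000162039, chromosome 16, 1833987 to 1884294). It measured 14.9, 25.5 and 14.3 CPM in resistant double-knockout and 5.72, 14.2 and 11.7 CPM in resistant libraries. It measured 4.86, 5.29 and 7.64 CPM in parental double-knockout and 2.75, 4.55 and 5.69 CPM in parental libraries. The log2 fold change of resistant against parental cells was 1.28 ± 0.42 SE (adjusted p 0.0360), and among double-knockout cells 1.62 ± 0.42 (adjusted p 0.0142). The first call was lost without resistant library 2 or 3 or parental library 1 or 2 (adjusted p 0.142, 0.0806, 0.122 and 0.0902), with limma-voom (0.0556) and with the 6 libraries fitted alone (0.0571), and the second without resistant double-knockout library 2 or parental double-knockout library 1 or 2 (0.0724, 0.0519 and 0.0503). MEIOB overlaps exons of FAHD1 on the opposite strand, which averaged 29.5, 22.4, 38.8 and 28.3 CPM in resistant double-knockout, resistant, parental double-knockout and parental cells and passed no test. SYCP2, an axis protein of the synaptonemal complex, averaged 36.8 to 45.1 CPM and STAG3, a meiotic cohesin subunit, 1.35 to 2.7 CPM over the groups, and neither passed a test.

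Among Tudor domain genes, TDRD12 measured 1.58, 2.16 and 3.40 CPM in resistant double-knockout and 0.64, 1.77 and 1.68 CPM in resistant libraries, with 3 reads over each parental group. The ratio of resistant to parental cells was 23.6 (7.75 to 117, adjusted p 0.00203), and among double-knockout cells 40.8 (13.6 to 200, adjusted p 0.000817). TDRD3, TDRD6 and TDRD7 passed no test in the main edgeR fit. TDRD3 was called lower in resistant than in parental cells in 2 of 20 alternative fits.

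The TEX genes share a name for testis expression and not a function. TEX14, a component of germ cell bridges, was higher in resistant cells at 0.98 ± 0.24 CPM against 0.21 ± 0.10 CPM in parental cells (log2 fold change 2.19 ± 0.55 SE, adjusted p 0.0105); it is among the genes tested only through their resistant level. TEX48 averaged 4.87 ± 2.16 CPM in resistant double-knockout and 0.20 ± 0.23 CPM in parental double-knockout cells (4.60 ± 0.96, adjusted p 0.00475), beside 4.71 ± 2.91 CPM in resistant and 0.98 ± 0.85 CPM in parental cells (adjusted p 0.0557). It reached the filter level in 0 parental double-knockout and 2 parental libraries, too few to pass without resistant ones. Its difference from parental cells is thus also part of why TEX48 was tested. TEX10, which acts in ribosome assembly in all cells, was the 1 member called lower in the main edgeR fit. It averaged 33.6 ± 5.7 CPM in resistant double-knockout against 58.6 ± 12.0 CPM in parental double-knockout cells (-0.80 ± 0.24, adjusted p 0.0268). That call was lost with library size as the only scaling (adjusted p 0.0573), which shifts the median of all genes by 0.15 on the log2 scale in this contrast. It was also lost without resistant double-knockout library 1 or 2 or parental double-knockout library 1 or 2 (0.0727, 0.101, 0.0549 and 0.104), with a filter of 1 count (0.110) and with the 6 libraries fitted alone (0.0805). TEX2, TEX9, TEX22, TEX30, TEX45, TEX52, TEX261 and the endoplasmic reticulum turnover receptor TEX264 passed no test in the main edgeR fit. In alternative fits of resistant against parental cells, TEX2 was called lower in 1 of 20 and TEX264 higher in 3 of 20. Among double knockouts TEX2 was called lower in 2 of 20.

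The effect of the KDM5A and KDM5B double knockout was read within each background. In resistant cells 1 member, SPANXB1, was higher and 0 were lower by edgeR (background 0.212%, or 38 of 17947 genes, all higher). The ratio of resistant double-knockout to resistant cells for SPANXB1 was 194, with a 95% exact counting interval of 34.4 to 7703 (adjusted p 0.0300), for a gene that was tested only because of its level in resistant double-knockout cells. Leaving out any 1 of the 6 resistant libraries ended the call, with adjusted p from 0.0599 to 0.179, while the direction stayed. At an unadjusted p under 0.05 there were 7 members and 1426 genes.

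Several other members had libraries that did not overlap between resistant double-knockout and resistant cells but did not pass the test. MAGEB2 had a log2 fold change of 3.03 ± 0.60 SE (adjusted p 0.0662), TEX19 1.95 ± 0.40 (adjusted p 0.0831) and MAGEA8 1.60 ± 0.39 (adjusted p 0.166). On the lower side MAGEA12 had -1.49 ± 0.43 (adjusted p 0.350) and MAGEA3 -1.23 ± 0.45 (adjusted p 0.525). In all, 7 of 32 tested members lay wholly above and 3 wholly below their controls, where 8.02% and 7.17% of all genes did. SPANXB1, MAGEB2 and MAGEA1 are among the 7 and passed the filter only with their double-knockout libraries. The count of 7 is thus partly set by that filter, and the knockout p-values of these genes are no independent support. DESeq2, with a background of 1.45%, called SPANXB1, MAGEB2, MAGEA8 and TEX19 as higher and MAGEA12 as lower (adjusted p 1.81e-05, 3.84e-05, 0.00424, 0.000333 and 0.0289). Type I MAGE genes did not share a direction in their values: MAGEA8 and MAGEB2 had their higher values with the knockout and MAGEA12 and MAGEA3 without it, and MAGEB17 had 0.17 ± 0.59 (adjusted p 0.975).

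**Figure D4:**
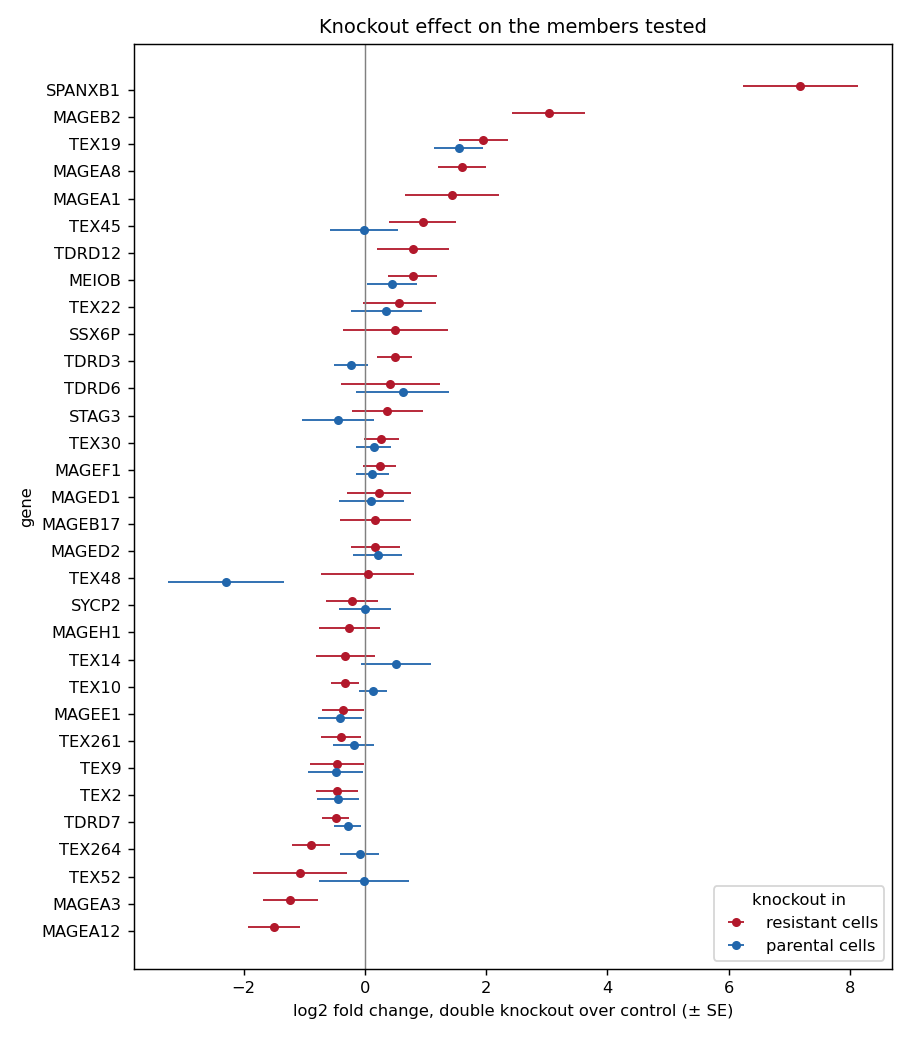
Log2 fold change (± SE) of double knockout over control for the 32 tested members, in resistant cells and, for the 22 members with more than 3 reads over a parental group, in parental cells. In resistant cells SPANXB1 (7.18), MAGEB2 (3.03) and TEX19 (1.95) lie farthest to the right and MAGEA12 (-1.49) and MAGEA3 (-1.23) farthest to the left.

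In parental cells the double knockout gave 0 called members by edgeR with group means only (background 0.0%), with 2 members and 539 genes at an unadjusted p under 0.05. DESeq2 and limma-voom also gave 0 members. With the replicate number as a block inside each background, edgeR called 1 member, TEX19 (adjusted p 0.0404, background 0.858%). The members that were at or near 0 in parental cells stayed there with the knockout. MAGEA1, MAGEA3, MAGEA12, MAGEH1 and SPANXB1 had 0 reads in all 3 parental double-knockout libraries, and MAGEA8, MAGEB2 and MAGEB17 had 1 read each. The test of the difference between the knockout effects called 0 members (background 0.0279%, 5 genes), with 0 members and 678 genes at an unadjusted p under 0.05, and 0 members by DESeq2 and limma-voom. For a gene without reads in either parental group that difference cannot be measured; for MAGEB2 it was 3.04 ± 2.03 on the log2 scale and for MAGEA8 1.63 ± 1.85 (adjusted p 1 for both).

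TEX19 was the 1 tested member whose double-knockout libraries lay above their controls without overlap in both backgrounds. The gene, which in mouse is needed for spermatogenesis and restrains retrotransposons, lies on chromosome 17 (ENSG00000182459, 82359247 to 82363776). Its exons overlap those of AC132938.4 on the opposite strand and share 42.3% of their sequence words with that gene. As the strand setting of the counting is not known, some reads counted for TEX19 may belong to AC132938.4. It measured 24.3, 19.2 and 10.7 CPM in resistant double-knockout and 3.15, 6.34 and 4.52 CPM in resistant libraries. It measured 7.42, 5.94 and 6.72 CPM in parental double-knockout and 2.03, 1.60 and 3.21 CPM in parental libraries. Such separation in both backgrounds held for 0.423% of all genes (76 of 17947). Averaged over both backgrounds the log2 fold change was 1.75 ± 0.29 SE (adjusted p 0.0376), and TEX19 was the 1 member called there (background 0.1%, or 18 genes, with 0.0892% higher and 0.0111% lower). That call was lost without any 1 of 10 libraries (adjusted p 0.0701 to 0.157) and held without resistant double-knockout library 3 or parental library 3. It was also lost with library size alone, limma-voom and a replicate block shared by all libraries (0.0724, 0.0665 and 0.0676). In parental cells alone the value was 1.55 ± 0.41 (adjusted p 1), and 1.58 ± 0.33 (adjusted p 0.0404) when replicate numbers entered as a block inside each background, where 0.858% of genes were called. TEX19 was also higher in resistant double-knockout than in parental double-knockout cells (1.43 ± 0.40, adjusted p 0.0199), a call lost without resistant double-knockout library 1 or 2 or parental double-knockout library 2 (0.102, 0.0672 and 0.0657).

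TDRD7, a Tudor protein of germ granules and the lens, lay below its controls without overlap in both backgrounds, as 0.574% of genes did. It averaged 27.3 ± 3.3 CPM in resistant double-knockout and 38.0 ± 6.1 CPM in resistant cells, and 36.4 ± 5.6 CPM in parental double-knockout and 44.2 ± 2.8 CPM in parental cells. Its mean log2 fold change over both backgrounds was -0.38 ± 0.16 SE (adjusted p 0.624).

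Germline genes outside these families were read from a list of 71, of which 70 were found and 26 tested. In resistant against parental cells 5 were higher and 2 lower, and among double-knockout cells 4 were higher and 2 lower, which is near the shares over all genes (28.0% and 23.9% called). No gene of the list passed for the knockout in resistant cells, in parental cells or averaged over both. CT45A1, an X-linked cancer-testis gene with near-identical copies, measured 6.43, 6.59 and 10.2 CPM in resistant double-knockout and 0.18, 0.61 and 0.89 CPM in resistant libraries, and had 0 reads in the 6 parental libraries. Resistant cells were at least 9.83-fold higher than parental cells (adjusted p 0.00496), and the knockout in resistant cells had a log2 fold change of 3.77 ± 0.63 (adjusted p 0.0672). SOHLH2, a germ cell transcription factor, was lower, with 0.04 ± 0.03 CPM in resistant and 1.38 ± 0.36 CPM in parental cells (-4.93 ± 0.75, adjusted p 0.000551). CT45A1 and SYCE3 passed the filter only through resistant libraries and SOHLH2 only through parental ones, so these differences too are part of why they were tested. CT45A1 reached the filter level in 3 resistant double-knockout and 2 resistant libraries. It would not have passed on the latter alone, so the same holds for its knockout contrast. The meiotic cohesin gene REC8 averaged 19.7 ± 2.0 CPM in resistant and 4.96 ± 2.7 CPM in parental cells (1.99 ± 0.53, adjusted p 0.0147). SYCE3, of the synaptonemal complex, averaged 1.15 ± 0.47 CPM in resistant double-knockout and 0.15 ± 0.07 CPM in parental double-knockout cells (2.87 ± 0.66, adjusted p 0.00815).

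Of 37 genes that encode known repressors of germline genes or enzymes of DNA methylation, all tested, 2 were higher and 4 lower in resistant than parental cells, and 2 were higher and 2 lower among double-knockout cells, beside 28.0% and 23.9% of all genes called. DNMT3B, a DNA methyltransferase that sets new methylation, averaged 20.6 ± 3.3 CPM in resistant and 75.7 ± 26.2 CPM in parental cells (-1.87 ± 0.37, adjusted p 0.00297). Among double-knockout cells DNMT3B was not called. TET1, which oxidises methylated cytosine, averaged 6.44 ± 1.80 CPM in resistant and 1.06 ± 0.29 CPM in parental cells (2.58 ± 0.42, adjusted p 0.000794), and 7.41 ± 1.38 and 1.36 ± 0.44 CPM in the corresponding double-knockout cells (adjusted p 0.00132). KDM1B, another demethylase of lysine 4 of histone H3, was higher in resistant than parental cells among double knockouts, at 34.9 ± 7.3 against 17.0 ± 3.2 CPM (1.04 ± 0.28, adjusted p 0.0167). CBX3, RNF2 and MORC2 were the other genes lower in resistant cells, and MGA and ATF7IP those lower among double knockouts. Averaged over both backgrounds, KDM5A itself was the 1 gene of the list called for the knockout (-1.13 ± 0.18, adjusted p 0.0300).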

How the data were processed

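The deposited values are raw read counts per gene in 12 libraries. Per the labels' protocols, a directional poly(A) kit was used; per the submitters' processing notes, the authors used featureCounts 2.0.1, Trim Galore 0.6.10 and STAR 2.7.10a with GRCh38. No source used here gives the annotation, the strand setting or the handling of multi-mapped reads. In 2 columns a misspelled line name was matched to resistant libraries 2 and 3. Coordinates came from GENCODE release 29 (GRCh38), which holds all 136 members.

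Genes passing filterByExpr (17947) were scaled with TMM factors and fitted over all 12 libraries with edgeR 4.0.16 (R 4.3.3). The quasi-likelihood test of 6 contrasts was adjusted by Benjamini-Hochberg at 0.05 and tested on simulated data. SE is the log2 fold change over the root of F. A group at 0 reads gives a bound against 3 counts over the group; 1 to 3 reads give a ratio with a 95% interval. Both cover counting error only. Libraries of a group differed by more than counting noise (chi-square over its degrees of freedom, 24.1 to 194.7). Shared sequence is the share of a gene's 50-base exon words found in other genes. DESeq2 1.42.0 and limma-voom (limma 3.58.1) were alternatives.

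Members and lists were chosen with earlier results of these data known. Every member called in any contrast is named; up to 4 genes per list were named by largest change at 1 CPM or more. Across genes, same-numbered parental and parental double-knockout libraries deviated together (r 0.66, 0.77 and 0.78), so the numbers were taken as pairing in parental cells. The main fit used group means only, and this pairing entered only in alternative fits with a replicate block.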

Additional observations from a re-analysis of the deposited data

How the results depend on the processing

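In resistant against parental cells 10 to 17 members were called over the alternatives (10 to 15 leaving out 1 library), and among double knockouts 13 to 17, where the refits called 13.9% to 33.6% and 12.6% to 30.0% of all genes. In resistant cells, the knockout gave 1 called member; this was 4 with a filter of 1 count (background 1.09%), 5 with DESeq2, 3 with limma-voom (0.245%), and 0 to 1 leaving out 1 library. The knockout averaged over both backgrounds gave 1 (TEX19), and 0 with library size alone, with limma-voom and with the replicate number as a block shared by all libraries, and 0 to 1 leaving out 1 library. The difference of the knockout effects gave 0 throughout, as did the knockout in parental cells except under the block. With a replicate block inside each background, the parental count was 1 (TEX19) and the resistant count 5 (backgrounds 0.858% and 5.23%). Same-numbered resistant libraries correlated at 0.57, -0.19 and 0.64, so their numbers are not taken as pairing. With a filter of 1 count, MAGEA10 (resistant against parental, adjusted p 0.0101) and MAGEA4 (among double knockouts, adjusted p 0.0148) were also called. Over 31 pairs of member and contrast, 566 of 612 recomputed values kept direction and call, 46 lost the call and 0 reversed. In 23 pairs the call was kept in every alternative that still tested the gene. Of these, only the pairs of MAGED1 and MAGEE1 belong to members measured in all groups. The others passed the filter only with their resistant libraries, so the stability of their calls is partly set by that filter. Causes were not tested. Depth limits members below about 1 CPM, and shared sequence limits GAGE (median 96.1% of 50-base words in other genes) and CTAG (89.9%).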

Other observations

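CSAG1, a cancer-testis gene on the minus strand of GRCh38 chromosome X (152727484 to 152733735) that starts beside the start of the plus-strand gene MAGEA12 and was chosen after its values were seen, measured 1.49, 1.00 and 1.30 CPM in resistant double-knockout and 3.68, 4.63 and 2.63 CPM in resistant libraries, with 0 reads in the 6 parental libraries. Its knockout libraries lay below its resistant controls, as those of MAGEA12 and MAGEA3 did, with a log2 fold change of -1.53 ± 0.48 SE (edgeR adjusted p 0.428). Of 8 germ cell and pluripotency markers 4, 3, 2 and 2 averaged at least 1 CPM in resistant double-knockout, resistant, parental double-knockout and parental cells. Among them TFAP2C, a transcription factor of early germ cells, averaged 3.63 ± 0.65 CPM in resistant and 0.05 ± 0.05 CPM in parental cells (log2 fold change 5.82 ± 0.82, edgeR adjusted p 0.000310), and like CSAG1 passed the filter only through resistant libraries. SOX17, another germ cell factor that ovarian carcinoma also expresses, averaged 7.05 ± 1.14 CPM in resistant and 26.3 ± 4.6 CPM in parental cells (-1.90 ± 0.30, edgeR adjusted p 0.000743). NANOG stayed at or below 0.122 CPM in every library.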
